A study of Mus musculus with 4 samples.

Results

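The genes described here are 45 chaperones and regulators of protein folding, chosen by name from a list of endoplasmic reticulum (ER) stress genes, ER folding enzymes, heat shock proteins and chaperonin subunits. All 45 were found among the 22554 gene names that occur once in each deposited table. They were split by role into an ER set of 25 genes and a cytosolic and mitochondrial set of 20 genes. The measurements are poly(A) RNA-seq levels in RAW264.7, a mouse macrophage line. The coculture group holds 2 libraries of RAW264.7 cells grown together with CT26, a mouse colon carcinoma line, and the mock group holds 2 libraries of RAW264.7 cells without tumour cells. The labels give DMEM as the growth medium of RAW264.7 and RPMI1640 as that of CT26, and name no other agent, genotype or transgene. How long the coculture lasted, and how macrophages were parted from tumour cells, was not given in the sources used here. As RAW264.7 is a transformed cell line, the groups describe that line and not primary macrophages.

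Each table holds the coculture and the mock library of one replicate number, so coculture 1 was compared with mock 1 (pair 1) and coculture 2 with mock 2 (pair 2). Levels are in FPKM, a read count divided by gene length and library size. Because FPKM is scaled by gene length, levels of different genes within a library can be set side by side. Levels in pair 1 and pair 2 come from separately made tables and fold changes are taken within a pair; statements on whether the groups overlap set the levels across both tables. A difference is log2(FPKM + 1) in coculture minus that in mock. Adjusted p-values are Benjamini-Hochberg values over all tested genes from limma, a linear model with moderated variances, with the pair as a block. Values after ± are limma's moderated standard errors, which borrow spread across genes, and n = 2 pairs throughout. Nothing in the labels says that the replicates are separate cultures, so the p-values measure how far these libraries scatter, possibly for technical reasons alone.

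Depth, estimated from the FPKM that a single read gives, lay between 12200000 and 16200000 reads. At this depth 33 of the 45 members had at least 1000 estimated reads in every library, for which counting alone gives an error of at most 3.16%. Of the macrophage markers, 8 of 8 had at least 18.3 FPKM in every library, and their summed level was 9871 and 12803 FPKM in cocultures 1 and 2, against 9364 and 5448 FPKM in mocks 1 and 2. Most of the gap in pair 2 was Lyz2, the lysozyme gene, at 10287 FPKM in coculture 2 and 3529 FPKM in mock 2, and its part in the results was not tested. In pair 1 Lyz2 was lower in coculture, at 6585 FPKM, against 7088 FPKM in mock. Cd14 was higher in both pairs, at 1732 and 1149 FPKM in cocultures 1 and 2, against 607 and 354 FPKM in mocks 1 and 2. Csf1r was lower in both, at 472 and 397 FPKM in coculture, against 637 and 535 FPKM in mock. Of the epithelial and carcinoma markers, 10 of 10 stayed below 1 FPKM in every library, with Epcam, Krt18, Krt20 and Cldn4 listed at 0 throughout, and their sum was 0.252 and 0.102 FPKM in cocultures 1 and 2, against 0.279 and 0 FPKM in mocks 1 and 2. The sum of 4 mesenchymal markers was 0.290 and 0.028 FPKM in coculture, against 0.548 and 0 FPKM in mock. In bulk RNA, fewer cells of a type and less RNA per cell cannot be told apart.

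Proteins that enter the ER are folded there by the HSP70 chaperone BiP, the HSP90 chaperone GRP94, the lectin chaperones calnexin and calreticulin, and the protein disulfide isomerases. When unfolded proteins build up, the sensors ATF6, IRE1 and PERK start the unfolded protein response, which raises the genes of these chaperones, sends misfolded proteins out of the ER for degradation and slows translation. Outside the ER, heat shock factor 1 drives HSP70, HSP90 and small heat shock protein genes, while the chaperonins HSP60/HSP10 in mitochondria and TRiC/CCT in the cytosol fold proteins inside a closed chamber. Activated macrophages secrete large amounts of cytokine, and in macrophages XBP1 and IRE1 are also known to act downstream of Toll-like receptors.

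No member passed the test in either direction. Of the 43 members tested, limma called 0, while it called 0.127% of the 10202 genes tested, which is 13 genes, all higher in coculture (85 higher and 18 lower after median centring of the libraries). At an unadjusted p under 0.05, 3 members were higher (Hspa5, Creld2 and Hsp90aa1; 6.98% of the members tested, against 5.26% of all genes tested) and 2 were lower (Atf6 and Xbp1; 4.65%, against 9.45%). The other 2 members, Hspa1a and Hspb1, did not reach 1 FPKM in at least 2 libraries and were not tested. By sign alone, members were higher in both pairs in 22 of 43 cases (51.2%, against 21.5% of all genes tested), lower in both in 8 (18.6%, against 42.2%), and of opposite sign in 13 (35.8% of all genes tested). That count depended on the scaling: after rescaling to a common total 13 members were higher in both pairs (30.2%, against 16.0% of all genes tested) and 10 lower, after quantile normalization 13 were higher (30.2%, against 25.9%) and 7 lower, and after median centring 29 were higher (67.4%, against 30.2%) and 5 lower.

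**Figure D1:**
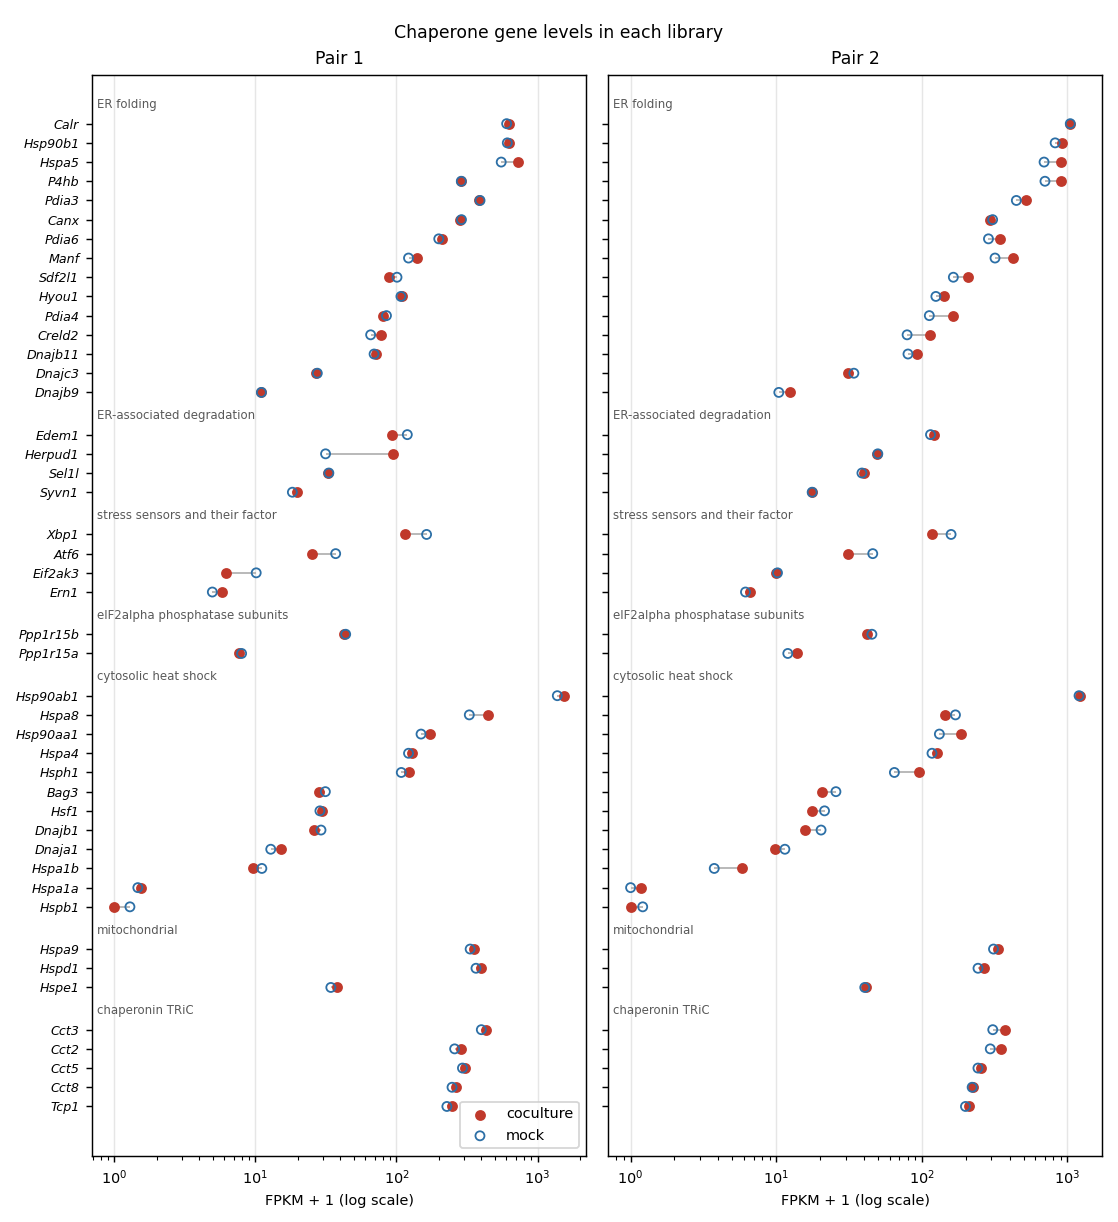
Level of each of the 45 members (FPKM + 1, log scale) in pair 1 (left panel) and pair 2 (right panel), with coculture as filled red points and mock as open blue points. Most coculture and mock points of a gene lie almost on each other; Herpud1 in pair 1, at 93.0 FPKM in coculture and 30.4 FPKM in mock, is the widest gap.

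The levels of the members spanned from Hsp90ab1, with 1534 and 1216 FPKM in cocultures 1 and 2 and 1381 and 1199 FPKM in mocks 1 and 2, down to Hspb1, listed at 0 in both cocultures. Hsp90ab1, the constitutive cytosolic HSP90, was the most abundant member in all 4 libraries. In pair 1 coculture the next were Hspa5, Hsp90b1 and Calr, and in pair 2 coculture they were Calr, Hsp90b1 and P4hb, all of them ER genes. Together the 45 members made up 2.05% and 2.62% of the summed FPKM in cocultures 1 and 2, against 1.96% and 2.42% in mocks 1 and 2. The ER set made up 0.951% and 1.64% in coculture, against 0.935% and 1.48% in mock. The cytosolic and mitochondrial set made up 1.10% and 0.976% in coculture, against 1.02% and 0.939% in mock.

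The sets did not stand apart from each other in a steady direction. The median difference of the 25 ER genes was 0.10 (-0.01 in pair 1 and 0.16 in pair 2), and that of the 18 tested cytosolic and mitochondrial genes was also 0.10 (0.12 in pair 1 and 0.08 in pair 2). Over all genes tested the median was -0.07 (-0.09 in pair 1 and -0.06 in pair 2). The ER median minus the cytosolic and mitochondrial median was -0.13 in pair 1 and 0.09 in pair 2, so the order of the sets differed between the pairs. With 2 pairs the smallest p that an exact two-sided permutation within pairs can give is 0.5, so none was run. The ER set was higher in both pairs in 10 of 25 genes and lower in both in 6. The cytosolic and mitochondrial set was higher in both in 12 of 18 and lower in both in 2. Over all genes tested, 21.5% were higher in both pairs and 42.2% lower in both. For the ER set the counts higher and lower in both pairs were 5 and 7 after rescaling to a common total, 17 and 3 after median centring, and 10 and 5 after quantile normalization. For the cytosolic and mitochondrial set they were 8 and 3 after rescaling, 12 and 2 after median centring, and 3 and 2 after quantile normalization.

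**Figure D2:**
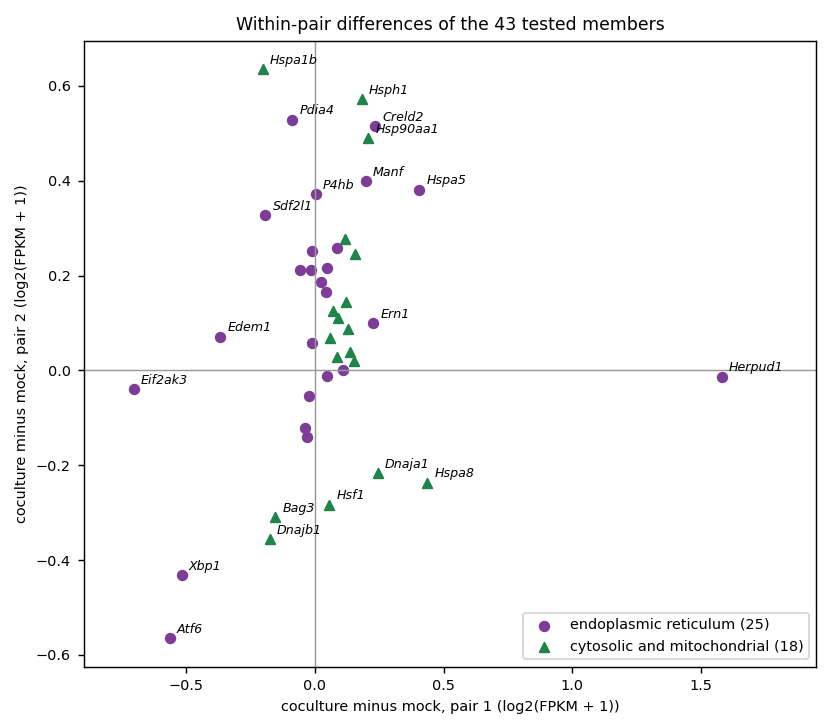
Difference in log2(FPKM + 1), coculture minus mock, of each of the 43 tested members in pair 1 (horizontal axis) and pair 2 (vertical axis), with ER genes as purple circles and cytosolic and mitochondrial genes as green triangles. Atf6 and Xbp1 lie at the lower left in both pairs, Hspa5 at the upper right, and Herpud1 at 1.58 in pair 1 and -0.01 in pair 2.

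Among the regulators of the unfolded protein response, the genes of ATF6 and XBP1 were lower in coculture in both pairs. Atf6 encodes a membrane-bound transcription factor that is cut and released to the nucleus under ER stress. It stood at 24.0 and 30.1 FPKM in cocultures 1 and 2, against 36.1 and 45.0 FPKM in mocks 1 and 2. Both cocultures were below both mocks, as in 21.5% of all genes tested. The difference was -0.57 in pair 1 and -0.56 in pair 2, which is -33.3% and -33.1% of the mock FPKM. The mean difference was -0.56 ± 0.11 (limma adjusted p = 0.188, 95% interval -0.87 to -0.26), the lowest adjusted p of any member.

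Xbp1 encodes the transcription factor that IRE1 switches on by splicing its mRNA. Xbp1 had 113 and 117 FPKM in cocultures 1 and 2, against 162 and 158 FPKM in mocks 1 and 2. Both cocultures were again below both mocks (21.5% of all genes tested), with differences of -0.52 in pair 1 and -0.43 in pair 2. The mean was -0.48 ± 0.11 (limma adjusted p = 0.224, 95% interval -0.77 to -0.18). A gene-level FPKM sums the spliced and unspliced forms, so the share of spliced Xbp1 was not measured.

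Eif2ak3 encodes PERK, the kinase that slows translation by phosphorylating eIF2alpha. Its level was 5.21 and 8.92 FPKM in cocultures 1 and 2, against 9.13 and 9.20 FPKM in mocks 1 and 2. Both cocultures were below both mocks (21.5% of all genes tested), but coculture 2 only slightly. The difference was -0.71 in pair 1 but -0.04 in pair 2 (mean -0.37 ± 0.22, limma adjusted p = 0.491). Ern1, the gene of IRE1, went the other way, with 4.79 and 5.59 FPKM in cocultures 1 and 2, against 3.95 and 5.15 FPKM in mocks 1 and 2 (mean difference 0.16 ± 0.17, limma adjusted p = 0.684). As a class, the summed level of these 4 genes was 147 and 161 FPKM in coculture, against 212 and 217 FPKM in mock. Xbp1 contributed most of that sum.

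The PERK branch is closed again by a phosphatase whose regulatory subunits are GADD34, the stress-inducible Ppp1r15a product, and the constitutive Ppp1r15b product. Ppp1r15a had 6.66 and 12.9 FPKM in cocultures 1 and 2, against 6.98 and 11.0 FPKM in mocks 1 and 2, with differences of -0.06 and 0.21. Ppp1r15b had 41.5 and 40.7 FPKM in coculture, against 42.6 and 44.4 FPKM in mock, with differences of -0.04 and -0.12. The mean differences were 0.08 ± 0.16 for Ppp1r15a and -0.08 ± 0.11 for Ppp1r15b.

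**Figure D3:**
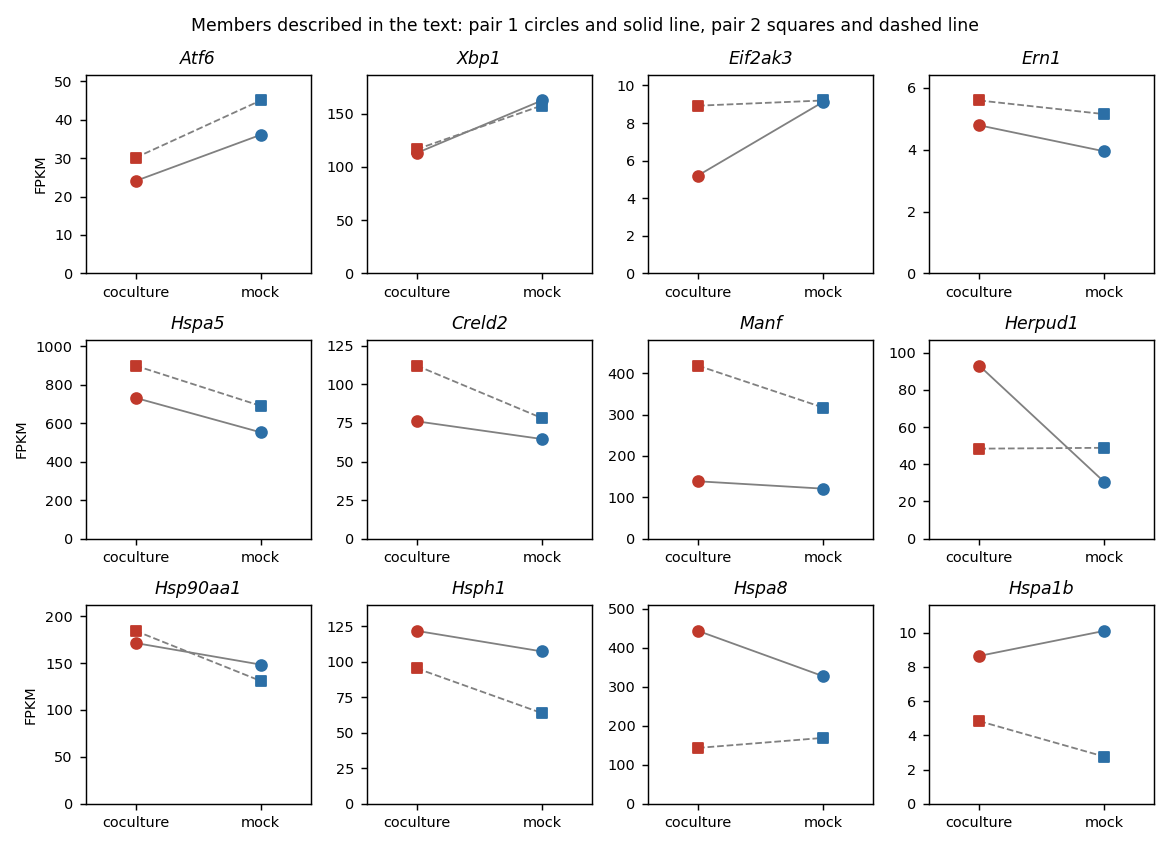
FPKM of 12 members in each library, coculture on the left and mock on the right of each panel, with pair 1 as circles joined by a solid line and pair 2 as squares joined by a dashed line. Lines of Atf6 and Xbp1 climb towards mock in both pairs, those of Hspa5, Creld2 and Manf descend in both, and those of Herpud1, Hspa8 and Hspa1b differ in slope between the pairs.

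The folding machinery of the ER did not share the lower values of Atf6 and Xbp1. Of its 15 genes, 8 were higher in both pairs (21.5% of all genes tested), 2 (Canx and Dnajc3) lower in both (42.2%) and 5 of opposite sign. Their median difference was 0.02 in pair 1 and 0.25 in pair 2. The summed level of the 15 was 3746 and 6083 FPKM in cocultures 1 and 2, against 3510 and 5205 FPKM in mocks 1 and 2, a ratio of 1.07 in pair 1 and 1.17 in pair 2. How the sign count of these 15 genes depends on the scaling was not tested, but that of the whole ER set did depend on it. After quantile normalization the mean differences of Hsp90b1, Calr, Pdia3 and P4hb turned to -0.036, -0.020, -0.017 and -0.0039. After median centring that of Canx turned to 0.026.

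Several genes of the ER set hold a known sequence element near their start site. The ER stress response element (ERSE), known as a binding element of ATF6 with NF-Y, is CCAAT, then 9 bases of any kind, then CCACG. It was searched on both strands from 250 bases before to 50 after each RefSeq start site (GRCm38.p6). The shorter ERSE-II is ATTGG, 1 base of any kind and CCACG, and so shares CCACG with ERSE and holds the reverse complement of CCAAT. Of the 45 members, 36 had such a window, 21 of them in the ER set. ERSE was present in 8 of those 21 genes and in 0 of 15 cytosolic and mitochondrial genes, and in 0.119% of all 32851 windows. ERSE-II was present in Dnajb11 and Herpud1 and in 0.0365% of all windows. The unfolded protein response element TGACGTGG, which ends in the reverse complement of CCACG, was found in no member window and in 0.676% of all windows. The sites are shown because ERSE occurs among the ER genes and in none of the cytosolic and mitochondrial genes with a window. The ER genes were chosen by name, ER stress genes among them, so this contrast may follow from the choice and is no independent result. Each is 30 bases of RefSeq sequence, read 5′ to 3′ on the strand where the element reads, with the fixed letters of ERSE in capitals.
Hspa5, chr2:34772020-34772049, plus strand: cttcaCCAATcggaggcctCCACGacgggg
Creld2, chr15:88819515-88819544, minus strand: tgtggaCCAATtgaggctcgCCACGagaag
Hsp90b1, chr10:86705632-86705661, minus strand: caagcCCAATcgcaaggagCCACGcttcgg
Hsp90b1, chr10:86705527-86705556, plus strand: aactcaCCAATcgtgcctcaCCACGcactc
Calr, chr8:84847069-84847098, plus strand: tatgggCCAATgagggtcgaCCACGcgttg
Canx, chr11:50325794-50325823, minus strand: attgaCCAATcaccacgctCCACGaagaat
Pdia6, chr12:17266486-17266515, plus strand: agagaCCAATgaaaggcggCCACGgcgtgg
Dnajc3, chr14:118937822-118937851, plus strand: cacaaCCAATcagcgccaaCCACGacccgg
Syvn1, chr19:6046527-6046556, plus strand: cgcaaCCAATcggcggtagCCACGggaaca

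Holding the element did not go with a uniform difference. The 10 ER genes with ERSE or ERSE-II had median differences of 0.07 in pair 1 and 0.08 in pair 2, with 6 higher in both pairs and 2 lower in both. The 11 ER genes that had a window with neither element had medians of -0.06 in pair 1 and 0.21 in pair 2, with 2 higher in both pairs and 2 lower in both. A match is a description of these letters and not a test of binding.

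Hspa5, which encodes BiP, the main HSP70 of the ER, had both cocultures above both mocks. Of the 25 ER genes it alone had this order, which 10.3% of all genes tested had. Its level was 731 and 898 FPKM in cocultures 1 and 2, against 552 and 689 FPKM in mocks 1 and 2. Coculture was above mock by 32.4% in pair 1 and 30.3% in pair 2. The mean difference was 0.39 ± 0.14 (limma adjusted p = 0.321, 95% interval 0.03 to 0.76). It was the single tested member at least 25% above mock in both pairs, as were 4.98% of all genes tested, while Atf6 and Xbp1 were the 2 tested members whose mock level was at least 25% above coculture in both, as in 10.8% of all genes tested. No tested member was at least 2-fold higher in both pairs (1.41% of all genes tested) or at least 2-fold lower in both (0.843%).

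Creld2 and Manf, which encode secreted ER proteins that are induced by ER stress, were also higher in coculture in both pairs. Creld2 stood at 76.1 and 112 FPKM in cocultures 1 and 2, against 64.6 and 78.2 FPKM in mocks 1 and 2. The mean difference was 0.37 ± 0.13 (0.23 in pair 1 and 0.52 in pair 2, limma adjusted p = 0.313). Manf stood at 139 and 418 FPKM in cocultures 1 and 2, against 121 and 317 FPKM in mocks 1 and 2, with a mean difference of 0.30 ± 0.12 (limma adjusted p = 0.370). For both genes the level in mock 2 exceeded that in coculture 1, so the groups overlapped across the tables while each pair had the same order. Creld2 carries ERSE on the minus strand within the 250 bases before its start site, shown here whole from RefSeq (GRCm38.p6, chr15:88819396-88819645, plus strand), with the fixed letters of the element in capitals and so read as its reverse complement.
Creld2 promoter: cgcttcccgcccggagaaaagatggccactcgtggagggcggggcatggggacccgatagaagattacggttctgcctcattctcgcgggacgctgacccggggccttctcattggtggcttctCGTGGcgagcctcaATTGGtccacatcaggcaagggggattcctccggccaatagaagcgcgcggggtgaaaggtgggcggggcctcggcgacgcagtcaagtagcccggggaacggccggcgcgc

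The other HSP90 and HSP70 machinery of the ER differed less. Hsp90b1, the gene of GRP94, had 628 and 921 FPKM in cocultures 1 and 2, against 610 and 822 FPKM in mocks 1 and 2 (mean difference 0.10 ± 0.14). Hyou1, an HSP70-like nucleotide exchange factor of BiP, had 108 and 141 FPKM in coculture, against 107 and 124 FPKM in mock. The BiP cochaperone genes Dnajb11, Dnajb9, Dnajc3 and Sdf2l1 had mean differences of 0.13, 0.12, -0.09 and 0.07. Sdf2l1 was of opposite sign in the pairs, with 87.2 and 205 FPKM in cocultures 1 and 2, against 99.9 and 164 FPKM in mocks 1 and 2. Limma's adjusted p for these 6 genes was between 0.633 and 0.871.

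The lectin chaperones of the calnexin cycle, which hold glycoproteins until they are folded, were nearly level. Calr, the calreticulin gene, had 623 and 1036 FPKM in cocultures 1 and 2, against 603 and 1044 FPKM in mocks 1 and 2, a mean difference of 0.02 ± 0.14 whose sign turned after rescaling to a common total or quantile normalization. Canx, the calnexin gene, had 283 and 294 FPKM in coculture, against 288 and 305 FPKM in mock, a mean difference of -0.04 ± 0.12 whose sign turned after median centring. The 95% intervals ran from -0.36 to 0.40 for Calr and from -0.36 to 0.28 for Canx, so changes within these bounds could not be told from none.

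The disulfide isomerases, which form and shuffle disulfide bonds, lay close to mock in pair 1 and above it in pair 2. P4hb had 288 and 905 FPKM in cocultures 1 and 2, against 287 and 699 FPKM in mocks 1 and 2, with differences of 0.00338 and 0.37. Pdia4 had 78.9 and 161 FPKM in coculture, against 83.9 and 112 FPKM in mock, with differences of -0.09 and 0.53. Pdia3, the partner of calnexin and calreticulin, had 386 and 515 FPKM in coculture, against 390.3 and 444 FPKM in mock, and Pdia6 had 211 and 342 FPKM in coculture, against 198 and 286 FPKM in mock. The pair 2 difference was the larger in all 4 of these genes, and limma's adjusted p was between 0.559 and 0.764.

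Of the genes that clear misfolded proteins from the ER, Herpud1 differed most between the pairs. Herpud1 encodes an ER membrane protein of the degradation complex around the ligase HRD1. It had 93.0 and 48.4 FPKM in cocultures 1 and 2, against 30.4 and 48.8 FPKM in mocks 1 and 2. Coculture 1 was thus 3.06-fold above its mock, whereas coculture 2 was at 0.991 times its own. Estimated reads were 3523 and 1380 in coculture and 1090 and 1787 in mock, so counting error is small beside the gap of 1.60 between the pair differences. The mean difference was 0.78 ± 0.39 (limma adjusted p = 0.427). Herpud1 was the single tested member at least 2-fold different in either pair, a bound passed by 11.3% of all genes tested. Its start site is preceded by an ERSE-II, shown with its fixed letters in capitals in the 250 bases before the start (RefSeq, GRCm38.p6, chr8:94386179-94386428, plus strand).
Herpud1 promoter: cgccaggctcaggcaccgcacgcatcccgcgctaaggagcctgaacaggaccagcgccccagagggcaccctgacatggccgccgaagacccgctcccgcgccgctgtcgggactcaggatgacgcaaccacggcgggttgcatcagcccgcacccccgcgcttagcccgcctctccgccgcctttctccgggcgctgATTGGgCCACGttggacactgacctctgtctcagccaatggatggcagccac

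The other members of the degradation pathway did not follow Herpud1 in pair 1. Sel1l, the adaptor of HRD1, had 31.9 and 39.4 FPKM in cocultures 1 and 2, against 32.2 and 37.8 FPKM in mocks 1 and 2. Syvn1, the gene of HRD1 itself, had 18.7 and 16.7 FPKM in coculture, against 17.3 and 16.6 FPKM in mock. Edem1, a mannosidase-like protein that marks glycoproteins for export, had 91.4 and 119 FPKM in coculture, against 118 and 114 FPKM in mock. Edem1 was lower in pair 1 (-0.37) and slightly higher in pair 2 (0.07).

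Among cytosolic heat shock genes, those of the inducible HSP90 and of an HSP110 protein were higher in both pairs. Hsp90aa1 had 171 and 184 FPKM in cocultures 1 and 2, against 148 and 131 FPKM in mocks 1 and 2. Both cocultures were above both mocks (10.3% of all genes tested), and the mean difference was 0.35 ± 0.13 (limma adjusted p = 0.339, 95% interval 0.00061 to 0.70). Hsph1, which encodes the HSP110 nucleotide exchange factor, had 122 and 95.3 FPKM in cocultures 1 and 2, against 107 and 63.8 FPKM in mocks 1 and 2 (mean difference 0.38 ± 0.14, limma adjusted p = 0.344). Hsp90ab1, the abundant constitutive paralog, had a mean difference of 0.09 ± 0.16. Its level was 8.95 and 6.60 times that of Hsp90aa1 in cocultures 1 and 2, against 9.31 and 9.16 times in mocks 1 and 2. Of the 50-base words in Hsp90aa1 transcripts, 47.5% also occur in transcripts of other annotated genes, most of them in Gm12346, against 3.44% for Hsp90ab1, so the Hsp90aa1 level depends on how the authors' counting treated shared reads.

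Of the stress-inducible HSP70 genes, Hspa1a was close to 0 and Hspa1b was low. Hspa1a was listed at 0.551 and 0.175 FPKM in cocultures 1 and 2, against 0.465 and 0 FPKM in mocks 1 and 2, which corresponds to an estimated 27, 6, 21 and 0 reads in that order. Hspa1b had 8.64 and 4.83 FPKM in coculture, against 10.1 and 2.75 FPKM in mock, with differences of -0.20 in pair 1 and 0.64 in pair 2. The 2 genes are near-identical copies: 62.3% of the 50-base words of Hspa1b occur in Hspa1a, so reads cannot be divided between them with confidence. Hspb1, the small heat shock protein gene, was listed at 0 in both cocultures, against 0.288 and 0.211 FPKM in mocks 1 and 2, an estimated 5 and 3 reads. Counts of 0 allow up to 3 reads, or 0.179 and 0.238 FPKM in cocultures 1 and 2, so no difference was detectable for Hspb1 at this depth.

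Hspa8, the constitutive cytosolic HSP70, differed in sign between the pairs. It had 444 and 143 FPKM in cocultures 1 and 2, against 327 and 169 FPKM in mocks 1 and 2, or 0.44 in pair 1 and -0.24 in pair 2. Dnaja1, one of its J-domain cochaperones, had the same signs, with 14.2 and 8.87 FPKM in coculture, against 11.8 and 10.5 FPKM in mock. Transcripts of other annotated genes hold 39.4% of the 50-base words of Hspa8 and 20.6% of those of Dnaja1. Hspa4, another HSP110 family gene with no shared words, had 126.9 and 127 FPKM in coculture, against 121 and 116 FPKM in mock. Its cocultures were both above both mocks (10.3% of all genes tested), but the mean difference was 0.10 ± 0.11.

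Further targets of heat shock factor 1 were lower in coculture in both pairs without passing the test. Dnajb1, the main HSP40 of the stress response, had 24.8 and 14.9 FPKM in cocultures 1 and 2, against 28.2 and 19.3 FPKM in mocks 1 and 2 (mean difference -0.27 ± 0.13, limma adjusted p = 0.415). Bag3, an HSP70 cochaperone that steers clients to autophagy, had 27.1 and 19.7 FPKM in coculture, against 30.3 and 24.7 FPKM in mock (mean difference -0.23 ± 0.12, limma adjusted p = 0.450). Hsf1, the gene of the factor itself, had 28.8 and 16.6 FPKM in coculture, against 27.7 and 20.5 FPKM in mock, with differences of 0.05 and -0.28. The 10 tested cytosolic heat shock genes thus went in different directions: 4 were higher in both pairs, 2 lower in both and 4 of opposite sign.

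Mitochondrial chaperone genes differed little, and all 3 were higher in both pairs, as were 21.5% of all genes tested. In mitochondria, Hspd1 (HSP60) had 397 and 267 FPKM in cocultures 1 and 2, against 365 and 242 FPKM in mocks 1 and 2, and its partner Hspe1 (HSP10) had 36.6 and 40.7 FPKM in coculture, against 33.2 and 39.5 FPKM in mock. Hspa9, the mitochondrial HSP70, had 353 and 334 FPKM in coculture, against 332 and 309 FPKM in mock. Of the 50-base words in these transcripts, 42.1% for Hspd1, 22.8% for Hspe1 and 2.81% for Hspa9 occur in other annotated genes, and the gene that shared most was Hspd1-ps3 for Hspd1 and Hspa9-ps1 for Hspa9. Mean differences were 0.13, 0.09 and 0.10 for Hspd1, Hspe1 and Hspa9.

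Hspd1 and Hspe1 lie head to head, and their promoter windows share a heat shock element (HSE: GAA, 2 bases of any kind, TTC, 2 bases of any kind, GAA, on either strand), in which matches on both strands overlap. The element was found in 0.603% of all windows, in Hspd1, Hspe1 and Hsph1 among 15 cytosolic and mitochondrial genes with a window, and in 0 of 21 ER genes. Hsp90aa1, Hsp90ab1, Hspa8, Hspa9 and Hsf1 had no window. Only exact matches were counted, so genes without a match, such as Dnajb1 and Bag3, may still hold other forms of the element. The site is shown because it stands before the genes of both mitochondrial chaperonin subunits, read here on the strand of each gene with the fixed letters in capitals.
Hspd1, chr1:55088050-55088079, minus strand: gccttccgGAAggTTCtaGAAcggaccgtg
Hspe1, chr1:55088056-55088085, plus strand: ccgttctaGAAccTTCcgGAAggccccgcg

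The TRiC subunits, which fold actin, tubulin and other cytosolic proteins, were 5 of 5 higher in both pairs, against 21.5% of all genes tested. Such counts depended on the scaling. Over the 18 tested cytosolic and mitochondrial genes, the count was 12 as reported and after median centring. It was 8 after rescaling to a common total and 3 after quantile normalization. Cct3 had 433 and 371 FPKM in cocultures 1 and 2, against 399 and 306 FPKM in mocks 1 and 2. Cct2 had 287 and 349 FPKM in coculture, against 257 and 294 FPKM in mock. The mean differences of Cct2, Cct3, Tcp1, Cct5 and Cct8 were 0.20, 0.20, 0.11, 0.06 and 0.06, with limma adjusted p from 0.502 to 0.843, and those of Cct5 and Cct8 turned sign after quantile normalization, as did that of Hspa9. The summed level of the 5 subunits was 1.08 times mock in pair 1 and 1.12 times mock in pair 2.

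**Figure D4:**
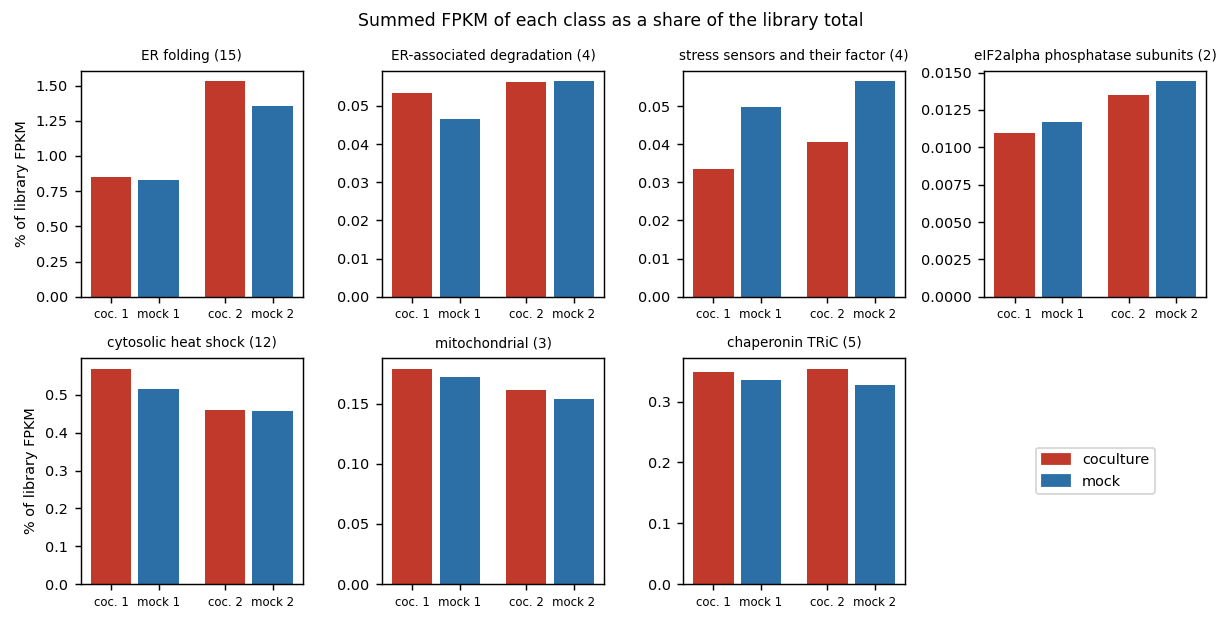
Summed FPKM of each class of members as a percentage of the library's total FPKM, with coculture (coc., red) left of mock (blue) within each pair; axes start at 0 and differ between panels. The class of stress sensors and their factor, mostly Xbp1, is lower in coculture in both pairs. It stands at 0.0335% and 0.0406% in coculture, against 0.0499% and 0.0565% in mock. The TRiC class is slightly higher, at 0.349% and 0.354% in coculture, against 0.335% and 0.328% in mock.

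Other genes of these pathways, taken from lists outside the 45 members, included none that passed the test. The branch of ATF4, the factor that PERK signalling raises, had 10 tested genes. Of these, 7 were higher in both pairs (21.5% of all genes tested), 1 was lower in both (42.2%) and 2 were of opposite sign. The 10 had a median difference of 0.16 in pair 1 and 0.56 in pair 2, and mean differences from -0.29 to 0.68. Those named next have the largest differences of one sign in both pairs. How this count depends on the scaling was not tested. Cebpb, also an inflammatory transcription factor, had 105 and 91.0 FPKM in cocultures 1 and 2, against 73.0 and 50.5 FPKM in mocks 1 and 2 (mean difference 0.68 ± 0.13, limma adjusted p = 0.182). Ddit3, the gene of the stress factor CHOP, had 9.27 and 11.1 FPKM in coculture, against 5.83 and 9.32 FPKM in mock (mean difference 0.41 ± 0.17, limma adjusted p = 0.370). Chac1, which degrades glutathione, had 3.34 and 7.19 FPKM in coculture, against 2.37 and 3.51 FPKM in mock. Nupr1, a stress-induced nuclear protein, had 12.1 and 58.4 FPKM in coculture, against 9.67 and 31.2 FPKM in mock.

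Of 27 further ER genes tested, 10 were higher in both pairs (21.5% of all genes tested) and 8 lower in both (42.2%). Erp29, an ER folding protein, had 251 and 236 FPKM in cocultures 1 and 2, against 312 and 341 FPKM in mocks 1 and 2 (mean difference -0.42 ± 0.13, limma adjusted p = 0.288). Selenok, a selenoprotein of the ER membrane, had 32.1 and 34.1 FPKM in coculture, against 20.9 and 27.7 FPKM in mock (mean difference 0.45 ± 0.14, limma adjusted p = 0.290). Sec61g, a subunit of the translocon, differed by -0.21.

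Among 21 further cytosolic chaperone genes, 3 were higher in both pairs (21.5% of all genes tested) and 7 lower in both (42.2%). The named ones, Ahsa1, Ahsa2, Dnajc7 and Hspa14, differed by -0.15, 0.29, -0.33 and -0.23. Among 9 further TRiC and prefoldin genes, 6 were higher in both pairs and 1 lower in both, and Pfdn2, Pfdn4, Pfdn1 and Cct7 differed by 0.22, 0.19, 0.16 and 0.14. Among 8 further mitochondrial genes, 3 were higher and 4 lower in both pairs, with Grpel1 and Clpx at 0.17 and 0.12 and Grpel2 and Trap1 at -0.22 and -0.12.

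**Figure D5:**
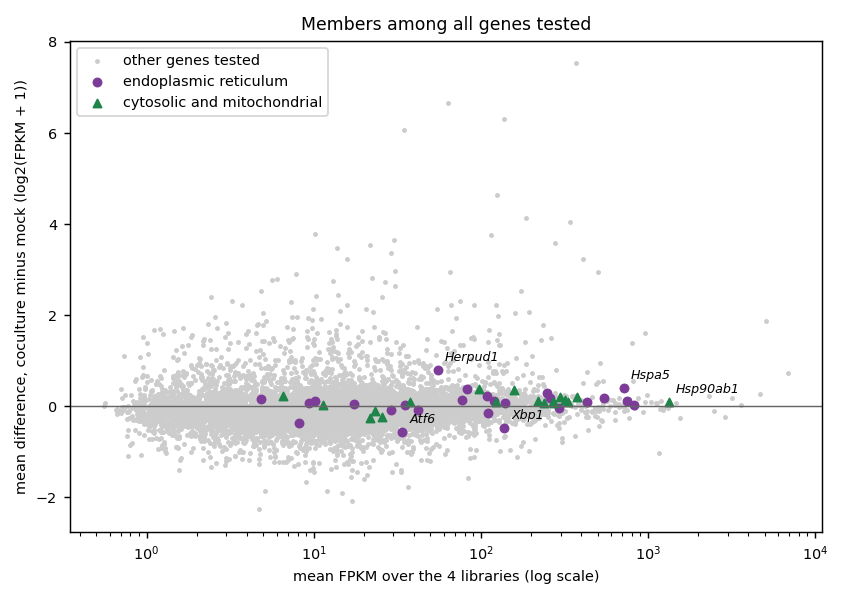
Mean difference in log2(FPKM + 1), coculture minus mock, against the mean FPKM over the 4 libraries (log scale) for all 10202 genes tested (grey), with ER members as purple circles and cytosolic and mitochondrial members as green triangles. The members lie between -0.56 and 0.78, while grey points reach 7.54.

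At the median, the members' differences were smaller than those of all genes tested in pair 1 and about equal in pair 2. The median absolute difference of the tested members was 0.12 in pair 1 and 0.21 in pair 2, against 0.20 and 0.21 over all genes tested. The median gap between the pair differences was 0.16 for the members, against 0.23 over all genes tested, and the median level was 119.9 FPKM for the members, against 14.9 FPKM. Both cocultures were above both mocks in 4 of the tested members (Hspa5, Hspa4, Hsp90aa1 and Hspa9), against 10.3% of all genes tested. Both were below both mocks in 4 (Atf6, Xbp1, Eif2ak3 and Ppp1r15b), against 21.5% of all genes tested.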

How the data were processed

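Per the labels' protocols, poly(A) libraries of RAW264.7 RNA came from a VAHTS mRNA-seq v2 kit (Vazyme). The FPKM values were deposited by the authors in 2 tables. The tools named are featureCounts, Subread and Trim Galore, and the build named is hg38, a human build, per the submitters' processing notes, although the symbols are mouse symbols; which versions, annotation, gene lengths and strand setting applied was not given in the sources used here. Members and lists were chosen with earlier results of these data known.

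From the first table, 23 unnamed rows and 287 rows with repeated names were left out (at most 5.25e-06% and 1.07% of a library's FPKM). The 10202 genes that reached 1 FPKM in at least 2 libraries were transformed to log2(FPKM + 1), which understates changes of low genes. The two-sided test was limma 3.58.1 in R 4.3.3, with a trended prior and the pair as a block, since each replicate number has a table of its own. Same-numbered libraries also deviated together (correlation across genes 0.76). The fit had 1 residual and 3.43 prior degrees of freedom. A gene was called at an adjusted p under 0.05. The 95% intervals are not adjusted for the number of genes. Folds and percentages of mock are ratios of FPKM.

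Depth was estimated from the FPKM of a single read and exon lengths of GENCODE M21, so estimated reads are approximate, and counting errors cover counting only. Shared words of 50 bases were counted over GENCODE M21 transcripts on both strands; the authors' read length and treatment of shared reads were not stated. Promoters came from RefSeq (GRCm38.p6), matched by symbol. All members are named. From each list of other genes, the text names up to 4 that average 2 FPKM or more and keep one sign in both pairs, ranked by the smaller of their pair differences; a gene that this rule names is not reported here. There were 13 alternatives.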

Additional observations from a re-analysis of the deposited data

How the results depend on the processing

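No member was called under any of the 13 alternatives, with limma adjusted p of at least 0.143 for every member, and 0 to 5 members had an unadjusted p under 0.05. Over all genes, the count called was 13. It was 22 with a pseudocount of 0.1, 0 with no filter on low values (1620 at an unadjusted p under 0.05), 26 with a filter of 5 FPKM, 26 after rescaling to a common total, 103 after median centring, 46 after quantile normalization, 1 without a trend in the prior variance, and 1 with no replicate block (459 at an unadjusted p under 0.05), which called no member. Leaving out 1 library, unblocked and so across the tables, called 0 genes in each case (176 to 523 at an unadjusted p under 0.05). The cause was not tested.

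The cytosolic and mitochondrial median difference was 0.044 after rescaling, 0.16 after median centring and 0.021 after quantile normalization, and the ER median was 0.044, 0.16 and 0.052 in that order, against 0.10 for both sets as reported. Without coculture 1, coculture 2, mock 1 or mock 2, in that order, it was -0.061, 0.24, 0.17 and -0.020, the ER median was 0.31, -0.17, -0.089 and 0.24, and the ER median minus the cytosolic and mitochondrial median was 0.37, -0.41, -0.26 and 0.26. These ranges set levels across tables, in which the pairs differ, and 9 to 14 of the 43 tested members then had the other sign. With all 4 libraries, the sign of the mean difference turned in 3 members after rescaling (Calr, Sel1l and Dnaja1) and in 1 after median centring (Canx). After quantile normalization 9 were counted with the other sign. One of the 9, Hsp90ab1, stood at -1.9e-15, which is rounding error and no turn of sign. Hspa5 stayed between 0.22 and 0.46, Creld2 between 0.32 and 0.44, Atf6 between -0.62 and -0.50 and Xbp1 between -0.56 and -0.41 over those 10 settings. Depth limited Hspa1a and Hspb1, with at most 27 estimated reads per library.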
